A study of Bos taurus with 12 samples.

Results

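The mitotic kinesins are motor proteins that use ATP to walk along microtubules, or to take them apart, while a cell divides. In dividing cells they push the spindle poles apart, move and hold the chromosomes, and build the midzone between the separating chromosome sets, through which the cell is finally cut by cytokinesis. Their transcripts are known to accumulate in G2 and M phase. Muscle cells are known to leave the cell cycle when myoblasts fuse into multinucleated myotubes, which do not divide again. The 10 genes described here, KIF11, KIF14, KIF15, KIF18A, KIF20A, KIF20B, KIF22, KIF23, KIF2C and KIFC1, were chosen by name from the 18436 genes of the expression table, with their fall from myoblasts to myotubes already known. Their expression differences are therefore given as a description, with no test.

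Bovine skeletal myoblasts, the precursor cells of muscle fibres, were isolated from longissimus dorsi of newborn Qinchuan cattle. Myoblasts in growth medium with 20% fetal bovine serum, harvested at 80% confluence on day 0, form the group GM, and cells kept for 4 days in differentiation medium with 2% horse serum form the group DM. No gene was altered in either group. Each group had 3 replicates, and each replicate gave an input library of poly(A) RNA and a library immunoprecipitated (IP) with an antibody against N6-methyladenosine (m6A), 12 libraries in all. The study names a single animal as the source of the cells, so the spread between replicates is that of cultures and not of animals.

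Expression is given as FPKM (fragments per kilobase of exon scaled to the mapped reads of the library) of the 6 input libraries, a level that can be compared between genes because it is per length. FPKM summed over all genes to 415740 to 434458 in GM and to 386437 to 390827 in DM. A difference between groups is the log2 fold change, DM minus GM, of log2(FPKM + 1), which understates the change of genes with low values, so the plain ratio of mean FPKM stands beside it. Of the 12302 genes that reached 0.5 FPKM on average over the inputs, 846 (6.88%) were called lower and 602 (4.89%) higher in DM by limma, at a Benjamini-Hochberg adjusted p under 0.05 and a fold over 1.5. On values rescaled to 1 total per library (TPM), 769 were lower and 960 higher, and the median log2 fold change of all tested genes moved from −0.05 to 0.06.

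The labelled cell types were checked against their markers. Of 5 myoblast markers, 3 were called lower in DM, among them PAX7, a transcription factor of muscle stem cells, which went from 1.08 ± 0.0972 to 0.0624 ± 0.0339 FPKM (SD, n = 3). DES (mean 453.45 FPKM in GM and 488.5 in DM) and CDH15 (21.5 and 17.9) were not called. Of 9 myotube markers 6 were called higher, among them MYH3, embryonic myosin heavy chain, at 273 ± 2.74 in GM and 659 ± 15 in DM. MYOG (mean 197 FPKM in GM and 243 in DM), MYMK (41.1 and 47.3) and MYMX (26.0 and 23.6) were not called. GM cultures thus also held transcripts of differentiated muscle. None of 8 fibroblast markers was called in either direction by limma, also at an unadjusted p under 0.05 with the same fold. Their log2 fold changes, from −0.23 (TCF21) to 0.39 (COL3A1), were all under the fold threshold, so the choice of p could not matter. Within that fold COL3A1, DCN and PDGFRA rose (limma adjusted p = 0.00128, 0.00321 and 0.00533) and TCF21 fell (0.0456). The summed FPKM of the 8 markers, mostly collagen, was 16030 to 16185 in GM and 16869 to 17963 in DM. Values were at hand for 5 of 6 adipocyte markers, 4 of 5 endothelial markers and 2 of 5 immune markers. Each of these sets summed to 0.331 to 2.66 FPKM in every library. The adipocyte sum was 1.21 to 1.36 in GM and 1.94 to 2.66 in DM. The part of the fibroblast transcripts in the results below was not tested.

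All 10 mitotic kinesins were measured in all 6 input libraries, and all passed the filter on low values. In DM, 4 of them (KIF2C, KIF14, KIF18A and KIF15) averaged under 0.5 FPKM and passed through their level in GM. Every DM library lay below every GM library for each of the 10, an arrangement that 33.0% of all tested genes showed, and 10 of 10 met the call rule for lower expression that 6.88% of tested genes met. Because the genes were selected on this same contrast, nothing is read from these counts. Summed over the 10 genes, FPKM was 70.7, 71.4 and 65.5 in GM replicates 1 to 3 and 9.18, 10.4 and 8.87 in DM replicates 1 to 3. In bulk RNA, fewer cells that express a gene and less RNA per cell cannot be told apart.

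**Figure D1:**
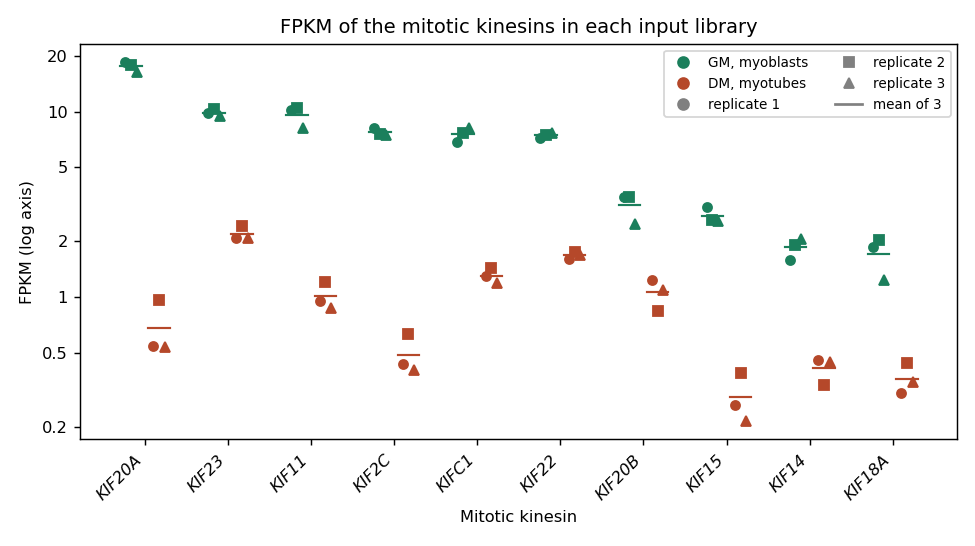
FPKM of each mitotic kinesin (log axis) in the 3 GM and 3 DM input libraries, ordered by the GM mean; symbols mark the replicate and lines the mean of 3. KIF20A had the highest GM mean (17.6 FPKM) and KIF15 the lowest DM mean (0.288 FPKM), and no DM point reaches the GM points of the same gene.

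The first group of motors builds the bipolar spindle. KIF11, the kinesin-5 motor also called Eg5, crosslinks antiparallel microtubules and slides the poles apart. It lies on chromosome 26 (26:14004835-14050631, plus strand, build ARS-UCD1.2, as for all coordinates here). Its FPKM was 10.2, 10.4 and 8.10 in GM replicates 1, 2 and 3 and 0.953, 1.21 and 0.875 in DM. GM replicate 3 was the low GM library, and the groups did not overlap. The means were 9.59 ± 1.29 and 1.01 ± 0.175 (SD, n = 3), a log2 fold change of −2.39 ± 0.11 (SE) and a 9.47-fold ratio of GM to DM, with ratios of single libraries between 6.70 and 11.9.

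KIF15, a kinesin-12 that works beside KIF11 in keeping the spindle bipolar, lies at 22:16507963-16564652 on the plus strand. It had 3.04, 2.59 and 2.58 FPKM in GM and 0.260, 0.392 and 0.213 in DM. DM replicate 2 was the highest of the DM libraries and still far under the GM values. The mean fell from 2.74 ± 0.263 to 0.288 ± 0.0924 FPKM (SD, n = 3). Its ratio of GM to DM (9.50-fold) was close to that of KIF11, while its log2 fold change on the log2(FPKM + 1) scale was smaller in size (−1.54 ± 0.09, SE), since its level was lower throughout.

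KIFC1, a minus-end directed kinesin-14 that bundles microtubules and focuses spindle poles, lies at 23:7570491-7585450 on the plus strand. Its FPKM was 6.89, 7.68 and 8.13 in GM and 1.30, 1.43 and 1.19 in DM. Here GM replicate 3 was the highest GM library, the opposite of KIF11. The means of 7.57 ± 0.632 and 1.30 ± 0.118 (SD, n = 3) differ by a log2 fold change of −1.89 ± 0.08 (SE), and DM kept 17.2% of the GM mean.

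The second group acts on chromosomes and microtubule ends. KIF22, a chromokinesin that pushes chromosome arms away from the poles, lies at 25:26438296-26453320 on the minus strand. Its libraries were the tightest of the 10 genes, at 7.16, 7.47 and 7.70 FPKM in GM and 1.61, 1.75 and 1.69 in DM. The coefficient of variation was 3.63% in GM and 4.38% in DM, and DM kept 22.6% of the GM mean (log2 fold change −1.65 ± 0.06, SE).

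KIF2C, also called MCAK, does not walk but removes tubulin from microtubule ends, at kinetochores among other sites. It lies at 3:101248621-101266875 on the minus strand and had 8.17, 7.54 and 7.49 FPKM in GM and 0.436, 0.628 and 0.401 in DM. It thus started near the level of KIF22 and ended much lower, at 6.32% of its GM mean. The means were 7.74 ± 0.377 and 0.489 ± 0.122 (SD, n = 3), and the log2 fold change was −2.56 ± 0.08 (SE). The ratio of GM to DM was 15.8-fold, and 11.9 to 20.4 between single libraries.

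KIF18A, a kinesin-8 that dampens the swings of chromosomes at the metaphase plate, lies at 15:58720346-58806311 on the minus strand. Its FPKM was 1.86, 2.04 and 1.24 in GM and 0.304, 0.438 and 0.347 in DM. It had the lowest GM mean of the 10 genes (1.71 ± 0.419, SD, n = 3), the widest spread in GM (coefficient of variation 24.5%), and a mean of 0.363 ± 0.0686 in DM. The fold between groups (4.71) ran from 2.83 to 6.71 between single libraries, and the log2 fold change was −0.98 ± 0.12 (SE).

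The third group works at the midzone and in cytokinesis. KIF20A, also called MKLP2, brings the chromosomal passenger complex to the midzone. It had 18.5, 17.9 and 16.3 FPKM in GM, the highest level of the 10 genes, and 0.545, 0.968 and 0.537 in DM. DM replicate 2 lay well above the other DM libraries, and its value was still far under the lowest GM value. The means were 17.6 ± 1.14 and 0.683 ± 0.247 (SD, n = 3), a 25.7-fold ratio, and the ratios of single libraries ran from 16.8 to 34.5. The log2 fold change of −3.47 ± 0.11 (SE) was the third lowest of all 12302 tested genes.

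KIF20A (7:49613257-49621657, plus strand) lies wholly within the span of CDC23 (7:49612809-49642263, minus strand), which encodes a subunit of the anaphase-promoting complex. The libraries were made with a strand-marking kit, but whether strand was used in counting is not given in the sources used here. CDC23 had 6.19, 6.11 and 5.66 FPKM in GM and 5.37, 4.83 and 5.02 in DM, a far smaller difference than that of KIF20A.

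KIF23, or MKLP1, forms the centralspindlin complex with RACGAP1 and lies at 10:16268432-16328199 on the plus strand. Its FPKM was 9.81, 10.3 and 9.45 in GM and 2.08, 2.41 and 2.08 in DM. The means were 9.87 ± 0.449 and 2.19 ± 0.189 (SD, n = 3), the highest DM level of the 10 genes, with a log2 fold change of −1.77 ± 0.07 (SE). KIF23 and KIF11 stood side by side in GM, with overlapping libraries, while in DM every KIF23 library was above every KIF11 library.

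KIF20B, or MPP1, works late in cytokinesis and lies at 26:11351677-11435642 on the plus strand. It had 3.44, 3.46 and 2.47 FPKM in GM and 1.24, 0.843 and 1.10 in DM. It kept the largest share of its GM mean among the 10 genes, 34.0%, and its smallest ratio between single libraries was 1.99-fold. The means were 3.12 ± 0.565 and 1.06 ± 0.202 (SD, n = 3), and the log2 fold change was −0.995 ± 0.12 (SE).

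KIF14, which binds PRC1 and citron kinase at the midbody, lies at 16:79237466-79278728 on the minus strand. It had 1.59, 1.92 and 2.06 FPKM in GM and 0.459, 0.337 and 0.447 in DM. As for KIF20B, DM replicate 2 was the lowest DM library. The means were 1.85 ± 0.239 and 0.414 ± 0.0673 (SD, n = 3), and the log2 fold change was −1.01 ± 0.09 (SE).

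The order of levels changed between the groups. In GM, neighbours in the order had separate libraries only between KIF20A and KIF23, between KIF22 and KIF20B, and between KIF15 and KIF14, and the other neighbours overlapped. In DM, KIF23 stood apart above KIF22 and KIF22 above KIFC1, and all lower neighbours overlapped. KIF20A was the first in GM and stood in the middle of the order in DM, between KIF11 and KIF2C. DM kept 3.89% of the GM mean of KIF20A, 6.32% of KIF2C, 10.5% of KIF15 and 10.6% of KIF11, and 17.2% to 34.0% of the other members, so the deepest falls came from each of the 3 role groups.

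Replicates of a group did not differ in the same way for every member. GM replicate 3 was the lowest GM library for 7 of 10 members and for 20 of 27 partner genes in mitosis, against 44.6% of all tested genes. DM replicate 2 was the highest DM library for 8 of 10 members, against 32.5% of all tested genes, and for 11 of 27 partner genes. With any single library left out, the log2 fold change of KIF20A lay between −3.59 and −3.41 and that of KIF18A between −1.11 and −0.89.

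**Figure D2:**
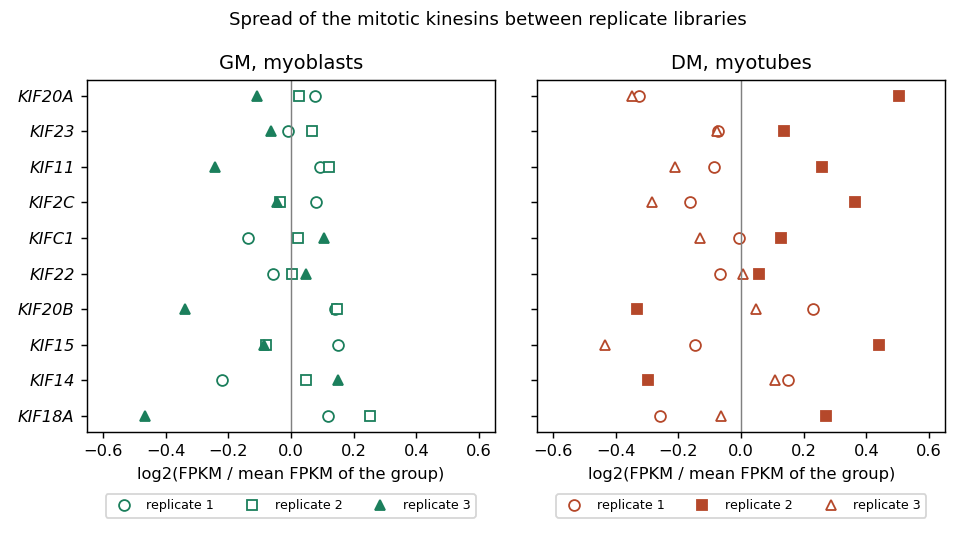
Each library's FPKM relative to the mean of its group (log2) for the 10 mitotic kinesins; filled symbols mark GM replicate 3 (left) and DM replicate 2 (right). GM replicate 3 lies lowest for 7 of 10 genes and DM replicate 2 highest for 8 of 10, with KIF20B and KIF14 the exceptions in DM.

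Other kinesins show how far the fall extended in the family. The remaining motors with a role in mitosis were taken from a list of 6, of which 3 (KIF4A, KIF4B and KIF2B) were not analysed here. CENPE, the kinetochore motor that carries chromosomes to the metaphase plate, had 4.93, 5.22 and 3.74 FPKM in GM and 0.532, 0.563 and 0.483 in DM. It fell by 1.87 ± 0.11 on the log2 scale (SE; limma adjusted p = 5.26e-06). KIF18B, which shortens astral microtubules, fell by 1.39 ± 0.08 on the same scale (adjusted p = 4.27e-06), from 2.31 ± 0.144 to 0.264 ± 0.0441 FPKM (SD, n = 3). KIF2A, a depolymerase with roles outside mitosis too, had 31.6, 31.3 and 28.2 FPKM in GM and 26.8, 29.2 and 28.7 in DM, and its groups overlapped (log2 fold change −0.10 ± 0.06, SE; limma adjusted p = 0.232). KIF2A shares its motor class with KIF2C.

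Over all tested genes, 6.88% were called lower and 4.89% higher. Of 22 tested transport and ciliary kinesins and kinesin subunits, 2 were called lower and 1 higher, near those shares, and 19 passed neither way. Their median log2 fold change was 0.03, against −0.05 over all tested genes and −1.71 over the 10 mitotic kinesins. Their summed FPKM was 340 to 359 in GM and 344 to 360 in DM. KIFAP3, the subunit that joins the kinesin-2 motors to cargo, fell from 44.6 ± 0.787 to 22.6 ± 0.702 FPKM (log2 fold change −0.95 ± 0.05, SE; limma adjusted p = 2.65e-06).

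KIF5A, a kinesin-1 heavy chain best known from neurons, fell from 1.64 ± 0.187 to 0.582 ± 0.0597 FPKM (log2 fold change −0.74 ± 0.08, SE; limma adjusted p = 2.36e-04). KIF26B rose from 2.57 ± 0.229 to 4.50 ± 0.315 FPKM (0.62 ± 0.08, SE; limma adjusted p = 3.75e-04), a call that is lost without GM replicate 2 (0.58) or DM replicate 3 (0.58) because the fold then lies under 1.5. KIF5B, the kinesin-1 heavy chain used by most cells, had 118 ± 9.92 and 129 ± 8.12 FPKM (SD, n = 3), and its libraries overlapped. The values of KIF3A, a kinesin-2 motor of cilia, were 20.6 ± 1.62 and 19.8 ± 1.23. KIF1C, a cargo motor, had 41.9 ± 0.361 and 55.3 ± 3.06, a difference of 0.39 ± 0.05 (SE) under the fold threshold.

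**Figure D3:**
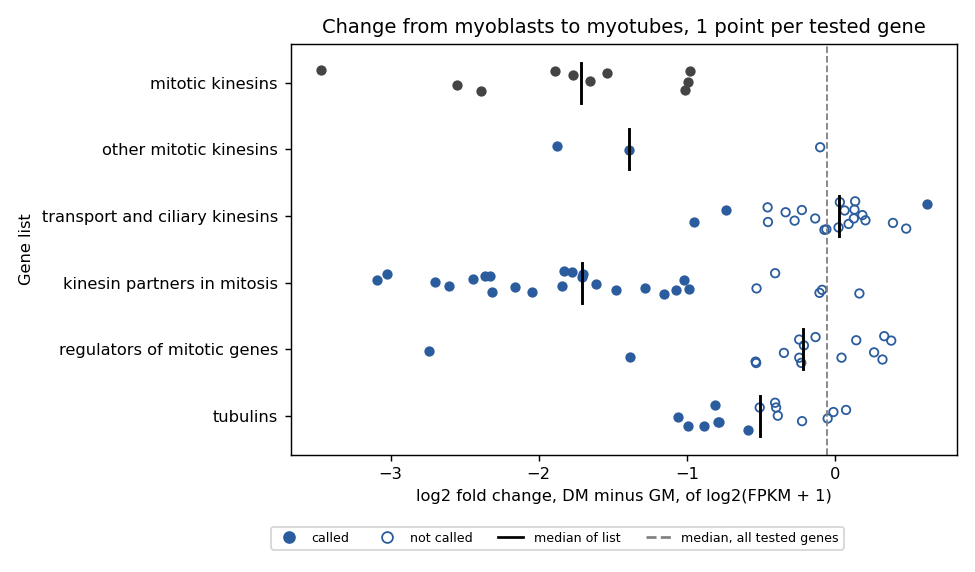
Log2 fold change, DM minus GM, of log2(FPKM + 1) for each tested gene of 6 lists; filled points were called, black bars are list medians and the dashed line is the median of all tested genes. The mitotic kinesins (grey, chosen by this contrast) and their partners have medians of −1.71, and transport and ciliary kinesins lie around 0.03. All lists were written with earlier results of these data known.

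The proteins that carry, load or switch the mitotic kinesins form the next list. Of 27 such partners, 22 were called lower and none higher, and none was higher at an unadjusted p under 0.05 with the same fold. Of all tested genes, 6.88% were called lower and 4.89% higher. This list, like the other lists here, was written with earlier results of these data known, so its counts are a description. The median log2 fold change of the 27 partners was −1.71. TPX2, which targets Aurora A and KIF15 to spindle microtubules, fell from 26.2 ± 1.59 to 6.55 ± 0.239 FPKM (log2 fold change −1.85 ± 0.06, SE; limma adjusted p = 3.73e-07). PRC1, the bundling protein that recruits KIF14 and other midzone motors, fell from 26.7 ± 2.50 to 5.69 ± 0.169 FPKM (−2.04 ± 0.07, SE; limma adjusted p = 5.00e-07).

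RACGAP1, the partner of KIF23 in centralspindlin, fell less than KIF23 itself, from 18.1 ± 0.574 to 6.84 ± 0.428 FPKM (−1.28 ± 0.06, SE; limma adjusted p = 1.95e-06), although the difference between the genes was not tested. The passenger complex kinase AURKB kept 28.8% of its GM mean and citron kinase (CIT) 34.1%, with log2 fold changes of −1.48 ± 0.08 and −1.08 ± 0.08 (SE; limma adjusted p = 3.41e-06 and 1.80e-05). CDK1, the kinase that drives entry into mitosis, fell from 5.15 ± 0.547 to 1.01 ± 0.262 FPKM (−1.62 ± 0.11, SE; limma adjusted p = 1.33e-05). The deepest falls of the list were those of CCNB1, its cyclin (−3.09), BIRC5 (−3.03), DLGAP5 (−2.70) and CCNB2 (−2.60), and the shallowest called ones those of INCENP (−0.99), ECT2 (−1.02), CIT and ANLN (−1.16). The 5 partners that were not called were CKAP5, RAN, NUMA1, RCC1 and CLASP1, named after their values were seen.

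Among 16 regulators of mitotic genes, only the transcription factors MYBL2 and FOXM1 were called, both lower, beside 6.88% of all tested genes called lower. MYBL2 had 19.3, 19.3 and 20.1 FPKM in GM and 1.66, 2.70 and 1.94 in DM (log2 fold change −2.74 ± 0.11, SE; limma adjusted p = 9.69e-07), with DM replicate 2 highest, as for most mitotic kinesins. FOXM1 fell from 1.99 ± 0.0392 to 0.144 ± 0.0319 FPKM (−1.39 ± 0.07, SE; limma adjusted p = 3.41e-06). LIN54, the DNA-binding subunit of the MuvB complex to which MYBL2 binds, had 7.31 ± 0.404 and 6.03 ± 0.458 FPKM, a difference under the fold threshold. CDKN1A, the inhibitor p21 of cyclin-dependent kinases, had 119 ± 4.27 in GM and 151 ± 11 in DM, and its difference of 0.33 ± 0.06 (SE) was also under that threshold. With 1 library left out, E2F1 (without GM replicate 1, −0.62, or DM replicate 2, −0.60) and LIN9 (without GM replicate 3, −0.60) also passed as lower, and both are named after their values were seen.

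Alpha- and beta-tubulins form the track of the motors. The list also held gamma-, delta- and epsilon-tubulins, none of which was called. The shares of all tested genes were 6.88% called lower and 4.89% higher. Of 15 tested tubulins 7 were called lower and none higher, also at an unadjusted p under 0.05 with the same fold. Their median log2 fold change was −0.51. The deepest were TUBB4B (−1.06), TUBB (−0.99), TUBA1B (−0.88) and TUBA1C (−0.81), followed by TUBB2B (−0.79), TUBB6 (−0.78) and TUBB2A (−0.59). TUBB, the main beta-tubulin of these cells, had 823 ± 33.8 FPKM in GM and 412 ± 14.6 in DM (SD, n = 3; limma adjusted p = 3.94e-06). The call of TUBB2A is lost without GM replicate 3 (−0.49), without DM replicate 1 (−0.54), on TPM (−0.47) and with size factors (−0.52). Some tubulin genes within a family are close copies of each other, so the split of reads between those genes is uncertain.

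Genes with a pattern like that of the mitotic kinesins were sought among the other 12292 tested genes, as a description. The highest Pearson r of log2(FPKM + 1) with the mean of the 10 genes over the 6 input libraries were those of NDC80 (0.9998), ESPL1 (0.9996), ITPRIP, ASPM and IGFBP5, and 389 genes had an r of at least 0.99. The libraries form 2 groups, which alone give a high r to a gene that differs between them, so r does not single out few genes. By distance, which also takes the level into account, the nearest were CDK1 (0.329), FANCD2 (0.373), ARHGEF39 (0.407), SPARCL1 (0.462) and INHBE (0.504), as Euclidean distance in log2 units. NDC80, a kinetochore protein that holds microtubules, had means of 7.44 FPKM in GM and 0.684 in DM.

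m6A is a methyl mark on adenosines of mRNA, and a peak is a stretch of exon where IP reads exceed input reads. The peak lists used here hold 1 set of peaks per group, with the replicates pooled, so each peak has a single value of fold enrichment (IP over input, a linear ratio), with no error and no test between groups. The GM list held 16 entries in 7 mitotic kinesins, and the DM list 11 entries in 6. At least 1 GM peak was listed for 70.9% of all tested genes and a DM peak for 78.7%. Among genes in the same range of mean FPKM as the members, 74.7% had a GM peak (1.71 to 17.6 FPKM, 6985 genes) and 70.0% a DM peak (0.288 to 2.19 FPKM, 2392 genes), so 7 and 6 of 10 are shares near the background.

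KIF11, KIF20B and KIF2C were listed with no peak in either group. KIF23 had a peak only in the GM list, and the other 6 members had entries in both lists. The GM libraries of KIF11 overlapped those of KIF23, and yet no KIF11 peak was listed. Of the transport and ciliary kinesins, 19 of 22 had a listed peak in GM and 19 of 22 in DM.

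KIF20A had 5 entries, and their place needs care because of CDC23 on the other strand. The lists give the strand of the gene named, not of the peak, but their entries run through plus-strand genes and then minus-strand genes on each chromosome. By this order, 3 of the 5 KIF20A entries stand among entries of minus-strand genes, directly beside those of CDC23 and BRD8. They are 7:49613497-49613707 in GM (fold enrichment 6.81), 7:49612959-49613617 in DM (7.99) and 7:49613707-49622604 in DM (4.95). The DM entries run 298 and 449 bases past the ends of KIF20A, where CDC23 but not KIF20A is annotated. Such entries make up 3.23% of the whole GM list and 3.46% of the DM list.

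The entries of KIF20A that stand among plus-strand genes are a single GM peak of 269 nucleotides in the 3′UTR (7:49621150-49621418, fold enrichment 1.66, false discovery rate 1.58e-21) and a DM peak of 240 nucleotides over 2 exon blocks, annotated to the 5′UTR (7:49613257-49613958, fold enrichment 2.90). They lie at opposite ends of the gene, at 95.6% and 4.2% of its span, and share no base. Without the 3 entries of the other strand, the members had 15 GM peaks and 9 DM peaks.

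Spindle assembly motors with a peak were KIF15 and KIFC1. KIFC1 had the most enriched of the remaining GM peaks after setting aside those 3 entries, 1768 nucleotides in 6 exon blocks reaching the end of the 3′UTR (23:7579103-7585450), with a fold enrichment of 6.26. Its DM peak (23:7579133-7580665) was limited to 2 blocks of 869 nucleotides, all within the GM peak, with a fold enrichment of 2.32. The log2 ratio of DM to GM was −1.43, and it compares stretches of unequal length, since the DM peak covers 49.2% of the GM peak. A further GM peak of 151 nucleotides had 1.31.

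KIF15 had 4 GM entries. Its entry in the 3′UTR (22:16564562-16564652, 91 nucleotides) had a fold enrichment of 5.44, and the other 3, in exons 8 and 33 of 35, had 1.45 to 1.46. The exon 8 entries had false discovery rates of 0.0562 and 0.103. The only DM entry lay in exon 27 (22:16555278-16556479, 390 nucleotides, fold enrichment 5.32), where no GM peak was listed. Its false discovery rate of 0.0363 was the highest among the members' DM entries, and KIF15 averaged only 0.288 FPKM in DM.

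Among the chromosome motors, KIF18A had the most alike pair. Its exon 13 peak (15:58729320-58730354 in GM, 15:58729290-58730384 in DM) was 300 and 360 nucleotides long over 2 blocks and had fold enrichments of 2.85 and 2.98, a log2 ratio of 0.06. Over all 10239 overlaps of a lone GM peak with a lone DM peak in the whole lists, the median log2 ratio was 0.07, and 25.1% of pairs lay past 1.5-fold in either direction. KIF18A also had a GM peak in exon 12 of 16 (1.89) and a DM peak in exon 1 (4.97). KIF22 had weak peaks next to each other but with no shared base, in exon 9 of 12 in GM (1.28) and in the 3′UTR in DM (1.83).

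Among the cytokinesis motors other than KIF20A, KIF14 had 3 GM and 3 DM entries. Its exon 1 carried an 837 nucleotide GM peak that ends at the annotated start of the gene (16:79277892-79278728, fold enrichment 3.41), and in DM the same exon carried 568 nucleotides with 4.87 and 210 nucleotides with 2.13. The other KIF14 entries lay in exons 14 and 19 of 29 in GM (2.27 and 2.07, the latter with a false discovery rate of 0.128) and in exon 9 in DM (4.41). KIF23 had 2 GM entries, in exons 17 and 19 of 24, with 1.51 and 1.43.

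**Figure D4:**
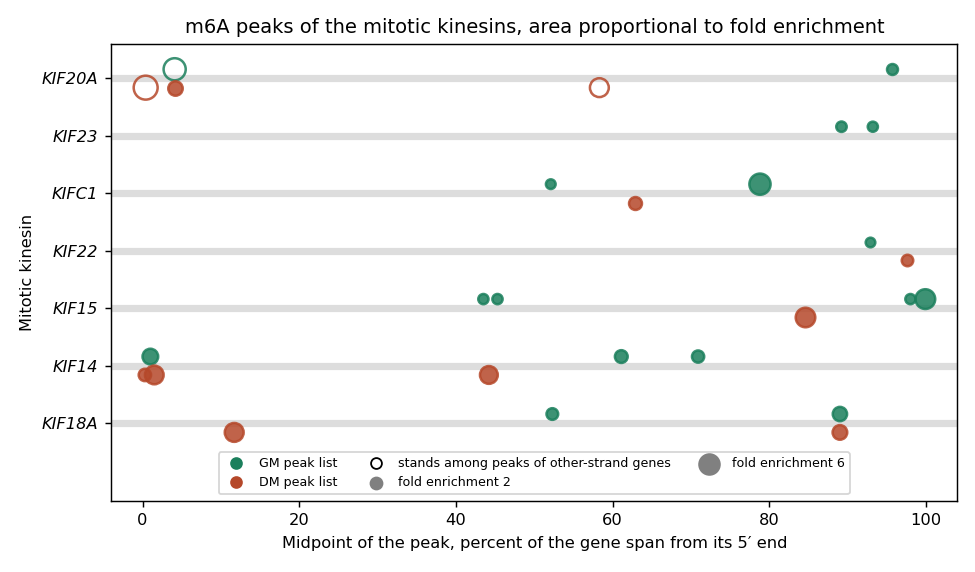
Midpoint of each listed m6A peak along the gene span (percent, from the 5′ end) for the 7 mitotic kinesins with a peak, GM above and DM below the line, with area proportional to fold enrichment; open circles are the 3 KIF20A entries that stand among peaks of genes of the other strand. KIF18A (89.0% of the span) and KIF14 (near the 5′ end) have peaks at the same place in both groups.

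In levels of enrichment, the members' GM entries had a median of 1.66 and their DM entries a median of 2.98, with the 3 other-strand entries left out. The whole lists, from which no such entries were removed, had medians of 3.27 and 3.38. With the 3 entries kept, the members' medians were 1.78 and 4.41. In the places where a lone GM peak overlapped a lone DM peak, fold enrichment was lower in DM in KIFC1 and nearly equal in KIF18A. KIF14 exon 1 had a single GM value (3.41) for its whole peak and DM values of 4.87 and 2.13 for separate parts. No direction of change is read there. These medians rest on few peaks, and for the members the DM input was 2.94 to 25.7 times lower than the GM input, whose part in the enrichment values was not tested.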

How the data were processed

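The authors trimmed reads with Trimmomatic and aligned them with HISAT2 to ARS-UCD1.2. For the m6A analysis they kept unique, non-duplicate reads with Sambamba, a step the paper does not name for the expression values. The processing notes also name cutadapt and fastp. The deposited FPKM are the authors' StringTie values of the 6 inputs. The authors called peaks of each sample with MACS2, which were not analysed here, and peaks of each group, with replicates pooled, with exomePeak on IP against input. The deposited lists used here are the latter, annotated with ChIPseeker. In the deposited lists, fold enrichment is a linear ratio of IP to input reads made by the authors' caller. Each deposited entry carries the caller's unadjusted p-value, its log10 and the log10 of the false discovery rate.

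Here, FPKM were tested as log2(FPKM + 1) with limma 3.58.1 in R 4.3.3, with moderated variances, a trend and Benjamini-Hochberg adjustment, on genes that averaged 0.5 FPKM or more. The study tested counts with edgeR at an unadjusted p, and those counts were not analysed here. Peak lists were read with pandas 2.3.3 and numpy 2.4.6 in Python 3.11.15, and matplotlib 3.10.9 drew the figures. A GM and a DM peak were paired where their exon blocks shared at least 1 base and the named genes lay on 1 strand. An entry was set with the other strand where fewer than 50% of the 40 entries around it on its chromosome named genes of its gene's strand. On simulated data of 12302 genes with 200 changed, 97% were recovered and 2 unchanged genes called.

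The 10 members and all gene lists were chosen with earlier results of these data known. Named are all members and other mitotic kinesins, the 4 lowest and 4 highest called genes of each further list, and preset genes (TPX2, PRC1, AURKB, RACGAP1, CIT, CDK1, FOXM1, MYBL2, CDKN1A, LIN54, KIF5B, KIF3A, KIF1C). The precision of FPKM is the spread of 3 cultures, and the p-values measure only that spread, since read depth per gene is not analysed here. Alternatives covered the pseudocount, filters, TPM, size factors, a replicate block, leaving out each library, the thresholds of calls and of peaks, the overlap rule and centring.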

Additional observations from a re-analysis of the deposited data

How the results depend on the processing

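Each of the 10 mitotic kinesins was lower in DM under all alternatives. All 10 were also called lower under each, except at a fold over 2, which 8 passed (not KIF18A and KIF20B). In the main setting 6.88% of all tested genes were called lower. Because the 10 genes were selected on this same contrast, nothing is read from their counts. With a pseudocount of 0.1 the log2 fold changes ran from −4.54 (KIF20A) to −1.47 (KIF20B), and on TPM from −3.97 to −1.16. A pseudocount of 0.1 gave 5 transport and ciliary kinesins called lower and 2 higher, and 4 regulators lower. On TPM, 960 genes were called higher, among them 2 transport and ciliary kinesins. A fold over 2 left 272 genes lower and 232 higher, 1 tubulin lower and 0 transport and ciliary kinesins in either direction; this threshold is stricter by construction. With each library left out in turn, 0 to 1 transport and ciliary kinesin was called higher. A pseudocount of 0.1 raised the calls over all genes to 1140 lower and 808 higher. The same replicate numbers occur in both groups, but same-numbered libraries did not deviate together (r of deviations −0.0792, −0.1235 and −0.2077 across genes, against −0.0594 to 0.187 for other numbers), and the samples share only a number. With a replicate block 856 genes were called lower and 603 higher, and no call of a listed gene changed.

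A fold enrichment of at least 2 left 7 member peaks in GM. A false discovery rate under 0.001 left 8 in GM and 6 in DM, in 3 members with a DM peak. Asking that 50% of both peaks overlap left 1 member pair, KIF18A. Centring on the median of all pairs moved the KIF18A ratio to −0.01 and the KIFC1 ratio to −1.51. Leaving out the 3 KIF20A entries of the other strand was chosen after seeing the data. The share of promoters with motifs was not run. Low FPKM in DM limits what can be said of KIF15, KIF18A, KIF14 and KIF2C there.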
